A study of Homo sapiens with 3 samples.

Results

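MALAT1, TALAM1 and NEAT1 are long noncoding RNAs from neighbouring stretches of human chromosome 11. They were followed through 3 lists of candidate A-to-G editing sites from the human monocytic leukemia line THP-1. A site belonged to one of them where the deposited list named that gene, and its strand was taken from the base that dominated in the control library. These 3 genes of 4245 listed genes held 199 of 16820 listed positions: 97 in MALAT1, 100 in TALAM1 and 2 in NEAT1.

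The lists come from HyperTRIBE, a method that fuses a protein to an overactive catalytic domain of ADAR, the enzyme that turns adenosine into inosine. RNA near the fusion can then give reads with G where the genome has A. DDX41, a helicase of the DEAD-box family, was the protein studied. All THP-1 cells carried a pGK-GFP retrovirus packaged in 293T cells: with no transgene (empty vector), with the catalytic domain by itself (ADARcd alone), or with DDX41 joined to it (DDX41-ADARcd). Total RNA was taken at day 7 from 1 library per group. There is thus no replicate error, and what is compared is 2 libraries at a time rather than conditions. The labels do not say whether cells were sorted for GFP or how much fusion protein they made. Of 20 markers of monocytic cells 13 had a listed site, among them SPI1, LYZ and AZU1, and 0 of 12 markers of T, B, erythroid and epithelial cells had one. CD14, CD33 and MPO were among the 7 monocytic markers with no listed site, which does not show that they lacked reads.

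MALAT1 is an abundant nuclear RNA that gathers in nuclear speckles, bodies rich in splicing factors. Its end is made by cleavage before a tRNA-like structure and protected by a triple helix in place of a poly(A) tail. TALAM1 is transcribed from the opposite strand of the same stretch. NEAT1 is the scaffold of paraspeckles, nuclear bodies built on its long isoform together with proteins such as NONO and SFPQ.

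The 6 sites of MALAT1 and TALAM1 found in both transduced libraries, the 2 NEAT1 sites and some of those with most edited reads or the highest level are printed here so that the letters around each edited A can be read. Each run is 5′ to 3′ on the RNA's own strand, written as DNA from GENCODE 29 transcripts on GRCh38, with the edited A in capitals. TALAM1 runs are the reverse complement of the MALAT1 transcript. MALAT1 and NEAT1 lie on the plus strand and TALAM1 on the minus strand.
MALAT1 65500527, chr11:65500513-65500541, both transduced libraries: ggtgaagataggaaAagagtccaggagcc
MALAT1 65500636, chr11:65500622-65500650, both transduced libraries: gaaggagcgagtgcAatttggtgatgaag
MALAT1 65500645, chr11:65500631-65500659, both transduced libraries: agtgcaatttggtgAtgaaggtagcaggc
MALAT1 65501973, chr11:65501959-65501987, DDX41-ADARcd: aagtcttagaatggAaaaagtaaagaaat
MALAT1 65503078, chr11:65503064-65503092, DDX41-ADARcd: gatcaagtggattgAggaggctgtgctgt
TALAM1 65503733, chr11:65503719-65503747, ADARcd alone: gtgttcgcagacaaAgtttctgaaagatt
TALAM1 65505576, chr11:65505562-65505590, ADARcd alone: ctgtgctagatcaaAaggcacggggtggc
TALAM1 65503414, chr11:65503400-65503428, both transduced libraries: aagaaattatttaaAgatgcaaatgcctc
TALAM1 65503723, chr11:65503709-65503737, both transduced libraries: acaaagtttctgaaAgattagagaagaat
TALAM1 65504666, chr11:65504652-65504680, both transduced libraries: tgtcactgattttaAggttgcatctggaa
TALAM1 65502514, chr11:65502500-65502528, DDX41-ADARcd: ataagtttaaaataAacaatttacaaaat
NEAT1 65424462, chr11:65424448-65424476, DDX41-ADARcd: tagatggagcttgcAgatggagccccgtg
NEAT1 65439571, chr11:65439557-65439585, DDX41-ADARcd: acgtctgtaataccAgcttctcaggaggc

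MALAT1 was among the genes with most sites in every list, at very low levels. It had 52 sites for ADARcd alone against the empty vector, rank 7 of 1258 genes. For DDX41-ADARcd it had 45 sites against ADARcd alone, rank 4 of 4036 genes, and 41 against the empty vector, rank 4 of 957. The median gene had 2, 1 and 2 sites in these lists in the same order. The number of sites a gene can have rises with its reads, and the depth at these positions is given below.

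The editing level, the percent of reads at a position that carry the edited base, had a median of 0.226% at the MALAT1 sites of ADARcd alone (0.211 to 0.279, 95% interval from order statistics, n = 52 sites). In DDX41-ADARcd the median was 0.392% (0.316 to 0.562, n = 45) in the list against ADARcd alone and 0.348% (0.275 to 0.473, n = 41) in the list against the empty vector. At most the level reached 0.784% with ADARcd alone and 1.72% with the fusion. No MALAT1 site had more than 3 edited reads in any library. A site with 1 edited read has a level set by its depth, and 43 of 52, 33 of 45 and 29 of 41 MALAT1 sites in the 3 lists were of that kind, beside 74.8%, 83.9% and 81.5% of all sites. The median depth was 461 reads for ADARcd alone (255 to 765) and 303 for DDX41-ADARcd in its list against ADARcd alone (60 to 431).

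The control of each listed site had 0 edited reads. The control depth of MALAT1 sites was low in the empty vector, with a median of 17.5 reads (10 to 84), and high in ADARcd alone, with a median of 506 reads (91 to 747). A floor of 3 reads therefore allows up to 25% at the MALAT1 site 65500645 in the empty vector (12 reads), and up to 0.850% at 65501973 in ADARcd alone (353 reads).

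No site of the 3 RNAs passed the test. A two-sided Fisher's exact test of edited and other reads, with Benjamini-Hochberg adjustment over every site of a comparison and a threshold of 0.05, called 0 of 112 member sites for ADARcd alone against the empty vector, where 0.203% of 6412 tested sites were called. It called 0 of 93 for DDX41-ADARcd against ADARcd alone, where 0.282% of 9227 were called, each of them lower in DDX41-ADARcd. Every deposited site of that list has 0 edited reads in ADARcd alone and cannot be lower in the fusion. Those calls can thus lie only among the 402 added positions that both transduced libraries share, which include 3 of MALAT1 and 3 of TALAM1. It called 0 of 77 for DDX41-ADARcd against the empty vector, where 0% of 3512 were called. These background shares amount to under 1 site in a set of the members' size. An unadjusted p under 0.05 was found at 0, 1 and 0 member sites, against 0.546%, 0.856% and 0.0854% of all tested sites. All member sites had at least 10 reads in each library and entered the test.

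Depth set what could be seen. At the median MALAT1 depth an unadjusted p under 0.05 against the empty vector needed 94 edited reads of 461 in ADARcd alone (20.4%) and 55 of 322 in DDX41-ADARcd (17.1%), because only 17 and 21 control reads stood against them. Against ADARcd alone the same p needed 4 edited reads of 303 in DDX41-ADARcd, a level of 1.32%. At these depths levels under these values could not reach even the unadjusted threshold, and the adjusted test asks for more.

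The lowest p among the members belonged to the MALAT1 site 65501973, at base 4212 of the single-exon MALAT1 transcript of GENCODE 29 (65497762 to 65506469). DDX41-ADARcd had 3 edited reads of 174 there (1.72%, exact Clopper-Pearson 95% interval 0.357 to 4.96) and ADARcd alone had 0 of 353. Fisher's exact test gave p = 0.0356 and an adjusted p of 0.56. The next MALAT1 sites of this list were 65503078 with 2 of 171 reads (1.17%, 0.142 to 4.16) against 0 of 349, and 65500857 with 2 of 254 (0.787%, 0.0955 to 2.82) against 0 of 392. Their intervals overlap the floors of the control, and neither reached an unadjusted p under 0.05 in Fisher's exact test (p = 0.108 and 0.154). Every deposited site has edited reads in its first library and 0 in the control. The listing thus fixed the direction of the difference, and these p values use the counts that selected the sites.

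Sites in both transduced libraries were few. MALAT1 had 3 positions listed against the empty vector for ADARcd alone and for DDX41-ADARcd, which is 5.77% of its sites in the former and 7.32% in the latter. Over all genes 402 positions were shared, 6.27% and 11.4% of the lists. The 3 MALAT1 positions lay within 118 bases of each other, at bases 2766, 2875 and 2884 of the MALAT1 transcript, and are the 3 sequences at the top of those printed. Position 65500527 had 2 edited reads of 241 in DDX41-ADARcd and 2 of 299 in ADARcd alone. Position 65500636 had 2 of 423 and 3 of 733, and position 65500645, in the same printed stretch, had 1 of 378 and 3 of 662. The levels of the 2 libraries overlapped at all 3 positions, with p = 1 at each in Fisher's exact test. Both lists share the empty vector as control.

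**Figure D1:**
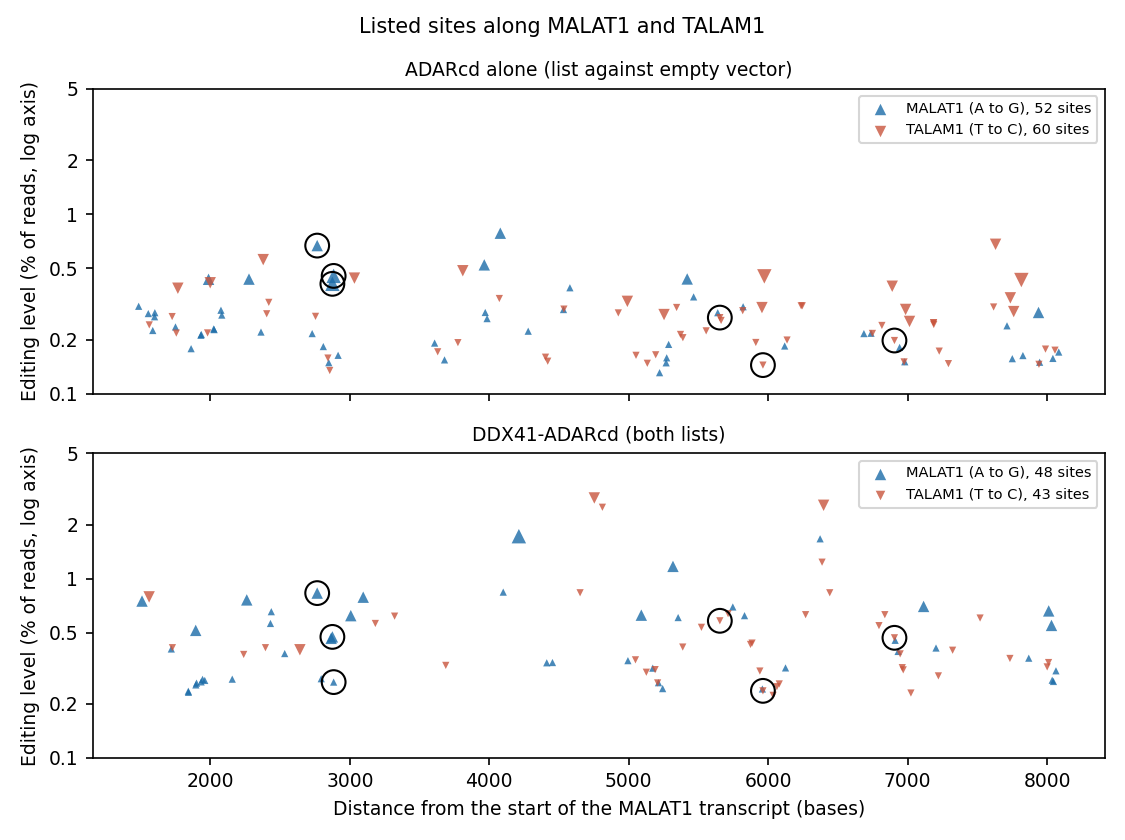
Listed sites by distance from the start of the MALAT1 transcript (bases, horizontal) and editing level (percent of reads, log axis, vertical), for ADARcd alone above and DDX41-ADARcd below; triangle size grows with the number of edited reads from 1 to 3 and circles mark positions listed for both libraries. MALAT1 and TALAM1 sites are interleaved along the whole stretch, most of them under 0.5%, and the 3 circled MALAT1 sites lie close together, between bases 2766 and 2884.

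TALAM1 had more sites than MALAT1 in 1 list and fewer in the other two: 60 for ADARcd alone against the empty vector, 40 for DDX41-ADARcd against ADARcd alone and 36 against the empty vector. Its ranks were 4, 7 and 6 among the same genes. Every one of its sites had T as the dominant base of the control and a T-to-C change, the mirror of A-to-G on the minus strand, and every MALAT1 and NEAT1 site had A. All lay inside the TALAM1 gene of RefSeq (GRCh38.p14, 65499312 to 65507432). GENCODE 29 lists no gene of that name, and the deposited lists call every one of these entries exonic. Median levels were 0.25% (0.216 to 0.287, n = 60), 0.406% (0.34 to 0.546, n = 40) and 0.379% (0.318 to 0.429, n = 36). Each of these intervals overlaps that of MALAT1 in the same list.

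Read totals did not separate the strands. Where a TALAM1 site and a MALAT1 site lay at most 10 bases apart, the reads at the TALAM1 position divided by those at the MALAT1 position had a median of 1.02 in ADARcd alone (0.942 to 1.16 over 13 pairs). In DDX41-ADARcd the median was 0.984 over 3 pairs in the list against ADARcd alone. The total at a position thus counts reads from either strand, and reads of the 2 RNAs cannot be told apart. The levels given for MALAT1 and TALAM1 are therefore percents of their joint reads, not of the reads of 1 RNA. The overlap of their median levels does not compare how strongly each RNA was edited. The assignment to TALAM1 rests on the base that changed, not on the strand of the reads.

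The best-supported TALAM1 sites were in ADARcd alone. Position 65503733 had 3 edited reads of 666 (0.45%, 0.093 to 1.31) and 65505576 had 3 of 698 (0.43%, 0.0887 to 1.25), against 0 of 58 and 0 of 55 in the empty vector, whose floors are 5.17% and 5.45%. In DDX41-ADARcd the highest level was at 65502514, with 2 of 71 reads (2.82%, 0.343 to 9.81) against 0 of 119 in ADARcd alone, followed by 65504158 with 2 of 78 (2.56%, 0.312 to 8.96) against 0 of 115. These 2 positions had far fewer reads than the TALAM1 median of 252, so that 2 edited reads weigh more. Position 65499322, with 2 of 253 against 0 of 381, lay 10 bases inside the RefSeq boundary of the gene. No TALAM1 site reached an unadjusted p under 0.05 (lowest p = 0.138, Fisher's exact test).

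The TALAM1 positions found in both transduced libraries were 65503414, 65503723 and 65504666, which is 5% of its ADARcd sites and 8.33% of its DDX41-ADARcd sites. Each rested on 1 edited read in each library: 1 of 172 and 1 of 377, 1 of 423 and 1 of 694, and 1 of 214 and 1 of 506, with DDX41-ADARcd first. They were spread over a longer stretch than the 3 of MALAT1. Of the fusion's sites against ADARcd alone, 7 of 45 in MALAT1 and 7 of 40 in TALAM1 appeared only in that list. Over all genes most of its sites must be of that kind, since it holds 10407 sites and the fusion's list against the empty vector 3516.

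MALAT1 and TALAM1 differed in how many sites rested on more than 1 edited read, with intervals that overlap in every list. In both lists of DDX41-ADARcd the share of each RNA nevertheless lay outside the interval of the other. In ADARcd alone 9 of 52 MALAT1 sites had 2 or more edited reads (17.3%, 8.23 to 30.3), beside 16 of 60 TALAM1 sites (26.7%, 16.1 to 39.7). In DDX41-ADARcd against ADARcd alone the order was the opposite, with 12 of 45 MALAT1 sites (26.7%, 14.6 to 41.9) and 4 of 40 TALAM1 sites (10%, 2.79 to 23.7). The list against the empty vector holds mostly the same fusion sites, with 12 of 41 (29.3%, 16.1 to 45.5) and 3 of 36 (8.33%, 1.75 to 22.5). Over all sites the shares were 25.2%, 16.1% and 18.5%. Among sites of other genes with reads in the range of MALAT1 they were 24.9% (n = 1857), 15.2% (n = 2439) and 16.6% (n = 882), and each of the 6 member intervals holds the value of its list. The change of order between the libraries was not tested.

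**Figure D2:**
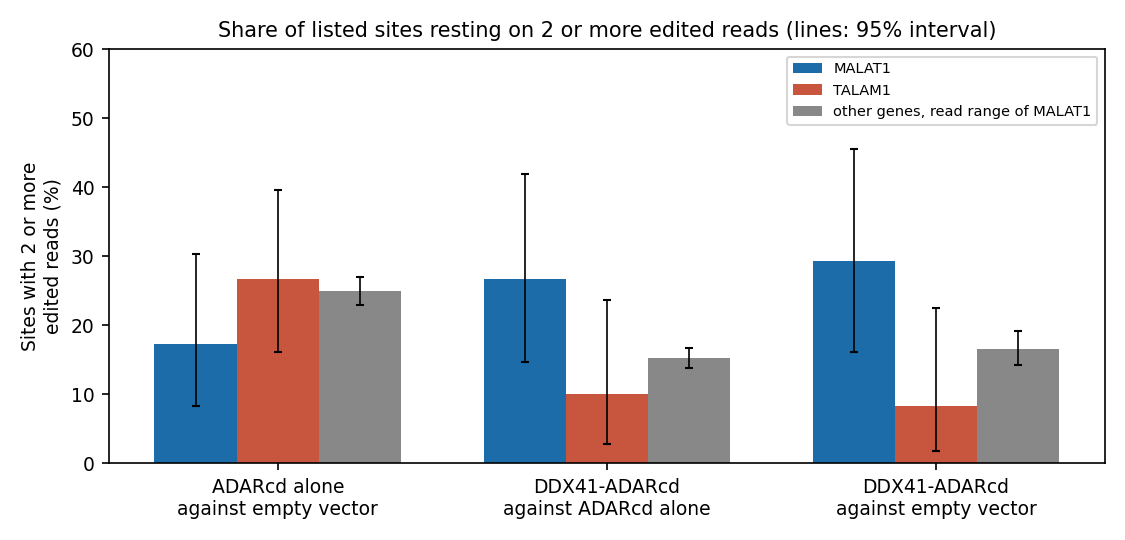
Share of listed sites with 2 or more edited reads (percent, vertical) in each of the 3 lists, for MALAT1, TALAM1 and sites of other genes in the read range of MALAT1; lines are exact 95% intervals. MALAT1 stands at 17.3%, 26.7% and 29.3% and TALAM1 at 26.7%, 10% and 8.33%, with member intervals that overlap in every list.

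The median level of MALAT1 and of TALAM1 lay below that of all sites in each list and below that of other genes with reads in the range of MALAT1. The median over all sites was 0.434% for ADARcd alone, 3.7% for DDX41-ADARcd against ADARcd alone and 0.515% for DDX41-ADARcd against the empty vector. For other genes with reads in the range of MALAT1 it was 0.279%, 0.943% and 0.427%. In both lists against the empty vector the intervals of the MALAT1 and TALAM1 medians reach these values of other genes. Those other sites had median depths of 432, 117 and 257 reads, below the 461, 303 and 322 of MALAT1. They were thus not matched in depth in any list, least of all in that of DDX41-ADARcd against ADARcd alone. Sites with many edited reads existed at this depth: the most at one site was 116 among other genes in the read range of MALAT1 in ADARcd alone, against 3 in MALAT1 and 3 in TALAM1.

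Reads with a base that was neither the genome's nor the edited one were counted at the same positions. At MALAT1 sites ADARcd alone had 33 such reads of 25312 (0.13%) beside 63 edited reads, and at TALAM1 sites 21 of 30436 (0.069%) beside 78. In DDX41-ADARcd against ADARcd alone the counts were 9 of 13284 beside 58 for MALAT1 and 5 of 10076 beside 44 for TALAM1. The edited reads are raised by selection, since each listed position has at least 1, and the other bases are spread over 2 kinds of change. The part of sequencing error in the listed sites was not tested. The most such reads at one member position were at 65503701, listed for TALAM1, where ADARcd alone had 10 reads with G of 555 (1.8%, 0.867 to 3.29), DDX41-ADARcd 1 of 328 and the empty vector 0 of 38. That is more than the edited reads of any member site. At the MALAT1 position 65501440 ADARcd alone had 6 reads with C of 649 (0.924%, 0.34 to 2) and the empty vector 0 of 14.

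The sites covered the same stretch on both strands. They ran over 6598 bases, from 65499247 to 65505844. The nearest to the start lay 1485 bases after the start of the MALAT1 transcript, and the last lay 273 bases before the tRNA-like RNA at the MALAT1 end (65506117 to 65506173). Within this stretch 52 of 2102 A on the MALAT1 strand were listed for ADARcd alone (2.47%, 1.85 to 3.23) and 60 of 1955 A on the TALAM1 strand (3.07%, 2.35 to 3.93). For DDX41-ADARcd against ADARcd alone the shares were 2.14% (1.57 to 2.85) and 2.05% (1.47 to 2.78). Listed A were as dense on one strand as on the other within these intervals. The conserved MALAT1 element RF01871 (65502914 to 65503008) held 1 MALAT1 and 1 TALAM1 site of ADARcd alone, and 3 and 2 of DDX41-ADARcd against ADARcd alone.

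Some sites were direct neighbours. On TALAM1, 3 adjacent A were listed for ADARcd alone with 1 edited read each, of 412, 403 and 403 reads. On MALAT1, 2 pairs of adjacent A were listed for DDX41-ADARcd: 65499603 and 65499604 with 1 of 425 and 1 of 431 reads, and 65499656 and 65499657 with 2 of 389 and 1 of 392. The runs are printed because the capitals stand side by side on 1 strand.
TALAM1, chr11:65504933-65504961, minus strand: agaataccatctgAAAgaactagtggttc
MALAT1, chr11:65499590-65499617, plus strand: cagacgaaaatggAAagattaattggga
MALAT1, chr11:65499643-65499670, plus strand: agatagaagtttgAAgtggaaaactgga
The lists do not give reads one by one, so whether 1 read carried adjacent changes was not tested. Within 10 bases of another site of the same gene lay 16 of 52 MALAT1 and 10 of 60 TALAM1 sites of ADARcd alone, and 12 of 45 and 4 of 40 of DDX41-ADARcd against ADARcd alone.

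The bases beside the edited A were set against sites of other genes with strong editing. ADAR enzymes favour U or A just before the edited A, disfavour G there, and favour G just after. At 256 strong sites, those of other genes with at least 5 edited reads for ADARcd alone, U stood before the edited A in 44.9% (38.7 to 51.2), G before it in 4.3%, and G after it in 55.1% (48.8 to 61.3). At sites of other genes with 1 edited read, U before the A was 15.2%. The fusion had few strong sites of its own: at 28 of them in its list against the empty vector U stood before the A in 35.7% (18.6 to 55.9) and A or U in 75% (55.1 to 89.3).

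At MALAT1 sites of ADARcd alone U stood before the A in 15.4% (6.88 to 28.1), below the interval of the strong sites and around the 21.1% of every A of the MALAT1 strand in the same stretch. G stood before it in 13.5% (5.59 to 25.8), where the strand has 23.7%, and G after it in 42.3% (28.7 to 56.8), where the strand has 28%. In DDX41-ADARcd against ADARcd alone the MALAT1 shares were 17.8% with U before (8 to 32.1), 31.1% with G before (18.2 to 46.6) and 24.4% with G after (12.9 to 39.5). The site 65501973 is one of those with G before the A.

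TALAM1 sites of ADARcd alone had U before in 16.7% (8.29 to 28.5), G before in 25% (14.7 to 37.9) and G after in 23.3% (13.4 to 36). Every A of the TALAM1 strand gave 22.7%, 13.5% and 17.7%. The interval for G before thus lies above the share of the strand, where the strong sites had 4.3%. It holds the 27.9% (26.6 to 29.2) at sites of other genes with 1 edited read for ADARcd alone, so this share was not particular to TALAM1. In DDX41-ADARcd against ADARcd alone TALAM1 had U before in 25% (12.7 to 41.2), G before in 17.5% and G after in 42.5% (27 to 59.1), which is above the share of its strand. The share with U before the edited A was thus below that of the strong sites of ADARcd alone in all 4 sets, with overlapping intervals for TALAM1 in the fusion library. Both fusion intervals overlap that of the fusion's own strong sites. For A or U before the edited A the strong sites of ADARcd alone had 79.7% (74.2 to 84.4). MALAT1 had 61.5% (47 to 74.7) in ADARcd alone and 53.3% (37.9 to 68.3) in the fusion, and TALAM1 56.7% (43.2 to 69.4) and 70% (53.5 to 83.4), beside 59% and 61.8% of every A of their strands. By that measure the intervals of MALAT1 in ADARcd alone and of TALAM1 in the fusion reach the strong sites. For G after the A, the intervals of MALAT1 in ADARcd alone and of TALAM1 in DDX41-ADARcd hold the 55.1% of the strong sites. They also hold the shares at sites of other genes with 1 edited read. These were 38.3% in ADARcd alone and 37.3% in DDX41-ADARcd against ADARcd alone, nearer to the 42.3% of MALAT1 and the 42.5% of TALAM1. Both NEAT1 sites had C before and G after.

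**Figure D3:**
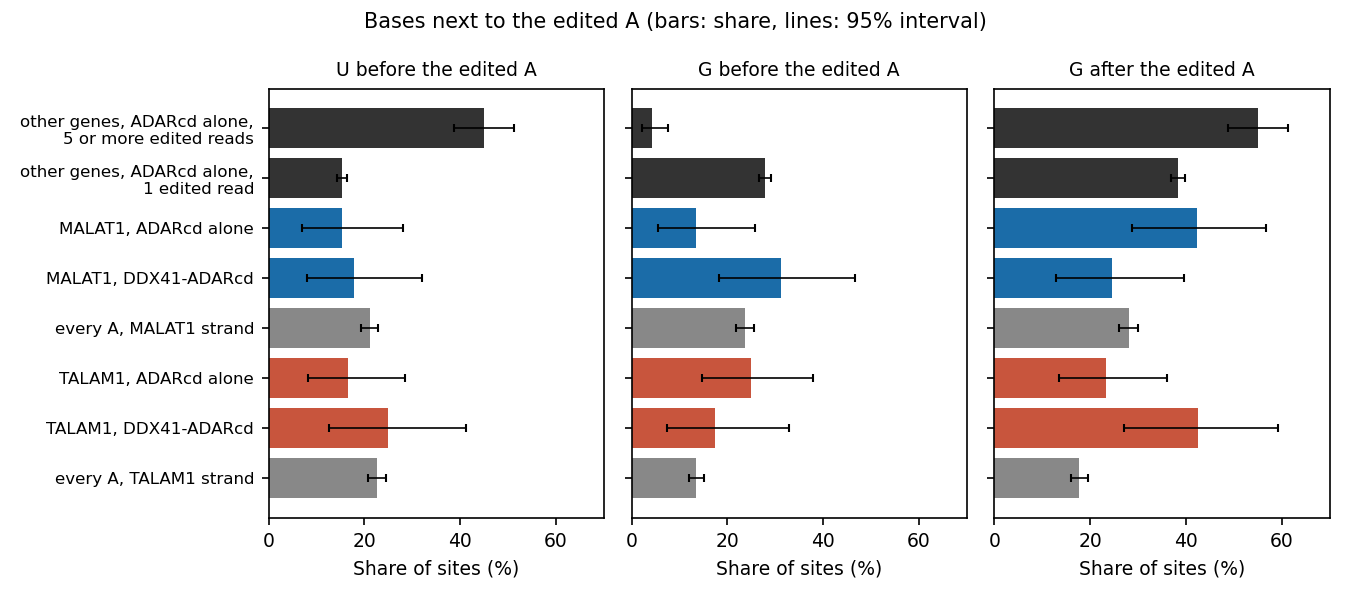
Share of sites (percent, horizontal) with U before, G before or G after the edited A; bars are shares, lines exact 95% intervals, and the DDX41-ADARcd bars use the list against ADARcd alone. U before the A stands at 44.9% for strongly edited sites of other genes and between 15.4% and 25% for the 4 member bars, near the grey bars of every A of the strand.

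The fusion library had fewer reads at the listed positions than ADARcd alone did, by amounts that differed along MALAT1. The read ratio, reads in DDX41-ADARcd over those in ADARcd alone, had a median of 0.563 over 45 MALAT1 positions (0.437 to 0.849) and 0.542 over 40 TALAM1 positions (0.407 to 0.723). Among 527 genes with 5 or more listed sites the median was 0.659 (5th to 95th percentile 0.488 to 0.876), and the 2 RNAs ranked 441 and 464 from the highest. Library totals were not used here, so a ratio has meaning only beside other genes. In a bulk sample fewer cells with an RNA and less RNA per cell cannot be told apart.

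In windows of 1000 bases along the MALAT1 transcript the ratio had a median of 0.802 over 12 positions in bases 1001 to 2000. It was 0.633 in the next window, 0.6 in the one after, and between 0.506 and 0.573 in the 5 windows up to base 9000. The highest value was 389 reads against 458 at 65499656 (0.849, 0.74 to 0.974) and the lowest 159 against 391 at 65504597 (0.407, 0.336 to 0.49). The intervals of these 2 positions, which cover counting error only, do not overlap. Position and ratio had a Spearman rho of -0.51 over 85 positions. These positions share 2 libraries and, where close, the same reads. Such a spread was not unusual: the 90th over the 10th percentile of the ratio was 1.69 in MALAT1, rank 14 of 32 genes with 20 or more sites, and 1.43 in TALAM1, rank 20, beside a median of 1.56.

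Reads in the empty vector were more numerous near the far end of MALAT1 than near its start, though not steadily so. The median empty-vector depth at the sites of ADARcd alone was 17 reads in bases 1001 to 2000, 46 in bases 7001 to 8000 and 56 beyond base 8000, while ADARcd alone had 452, 599.5 and 587. The ratio of ADARcd alone to the empty vector had a median of 26.7 in the window nearest the start, 28.6 and 41.3 in the next windows, where the empty vector had medians of 13 and 14 reads, between 18.5 and 20.4 in bases 4001 to 7000, 12.7 in bases 7001 to 8000 and 11.2 in the last window, which held 3 positions. For DDX41-ADARcd over the empty vector the medians were 20.5, 20 and 20.7 in the 3 windows nearest the start, 10.5, 8.54 and 7.57 in those of bases 4001 to 7000, and 6.78 and 6.55 in the last of them. The 2 series share the empty vector. Positions with under 10 empty-vector reads are not listed, so these ratios come from selected positions and the share of that selection in the slope was not tested.

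**Figure D4:**
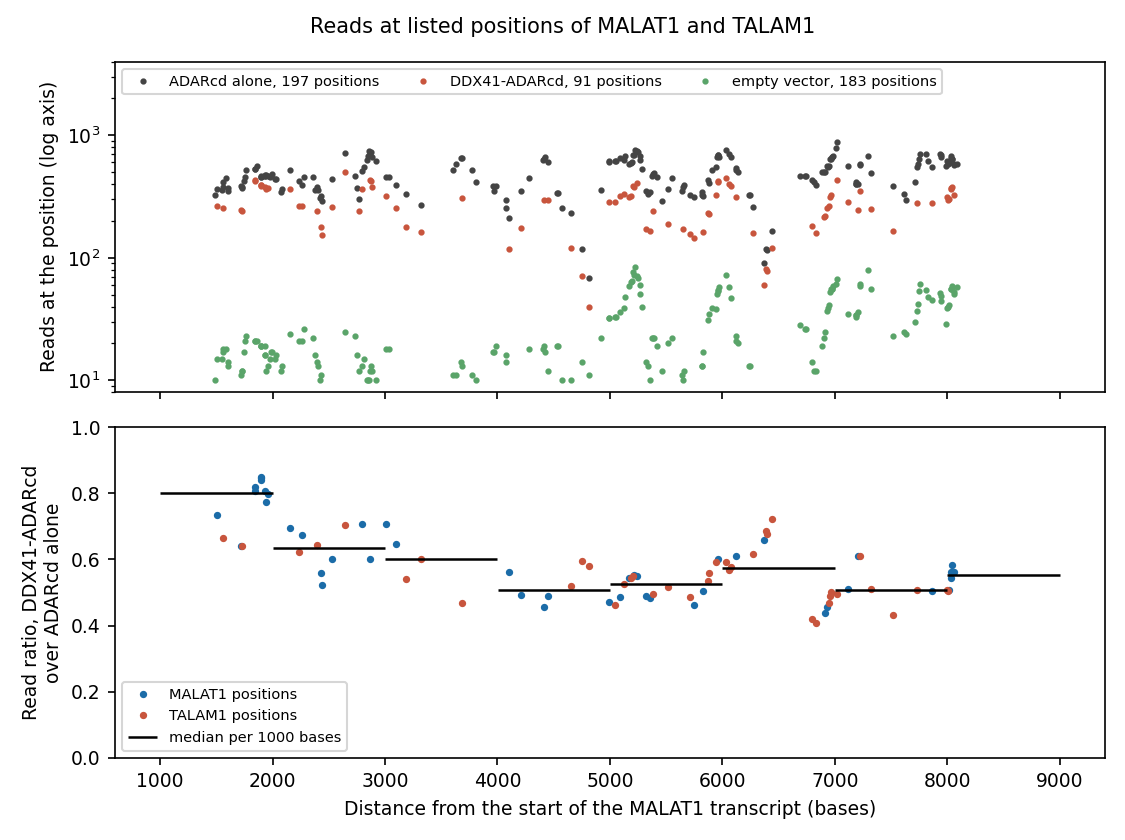
Reads at listed MALAT1 and TALAM1 positions in each library (above, log axis) and the read ratio of DDX41-ADARcd over ADARcd alone (below), by distance from the start of the MALAT1 transcript in bases; black lines are medians per 1000 bases. The ratio is highest in the window nearest the start, 0.802, and stays between 0.506 and 0.573 from base 4001 on, while empty-vector reads start at the listing minimum of 10 and reach 84.

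NEAT1 appeared in only 1 of the 3 lists, DDX41-ADARcd against ADARcd alone, with 2 sites. Position 65424462, at base 1665 of the long isoform (65422798 to 65445540), lies in the stretch that the short isoform (65422774 to 65426457) shares with it. DDX41-ADARcd had 1 edited read of 33 there (3.03%, 0.0767 to 15.8) and ADARcd alone 0 of 37. Position 65439571, at base 16774, lies 13114 bases past the end of the short isoform and so only in the long one. It had 2 edited reads of 14 (14.3%, 1.78 to 42.8) in DDX41-ADARcd and 0 of 22 in ADARcd alone, a floor of 13.6%. Fisher's exact test gave p = 0.471 and 0.144, each with an adjusted p of 0.56.

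These NEAT1 levels are above any of MALAT1 or TALAM1 as numbers, and they rest on 3 edited reads in all. The interval of 65424462 (0.0767 to 15.8) reaches down to the levels of both RNAs. That of 65439571 (1.78 to 42.8) holds the highest TALAM1 level, 2.82%, but starts above the TALAM1 median of 0.406%. It also starts above the highest MALAT1 level, 1.72% at 65501973, though the interval of that site (0.357 to 4.96) overlaps it. The read ratios at the 2 positions were 0.892 (0.541 to 1.47) and 0.636 (0.301 to 1.3). Depth of 14 to 37 reads is below the lowest depth at MALAT1 sites of this list, 60 reads. NEAT1 had 0 sites in the lists against the empty vector, and its reads in that library were not analysed here.

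The letters around 65439571 are shared by many genes. The run TGTAATNCCAGC, read from its printed sequence with N for 1 base, occurs on either strand in transcripts of 9168 of 58721 GENCODE genes (15.6%). The run GGAGCTNGCAGA of the same length around 65424462 occurs in 258 (0.439%). Alu elements, the commonest repeats of primate genomes and frequent targets of natural ADAR editing, carry letters of the former kind. Both runs were picked after the sequences were seen, and a match is a description only.

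By their numbers of sites over the 3 lists, MALAT1 and TALAM1 were compared with all other genes. Likeness was the sum over the lists of absolute log2 differences in the number of sites, among 763 genes with a site in every list. MALAT1 and TALAM1 lay 0.56 from each other, over the same reads, and were left out of each other's ranking. Among the remaining genes the nearest to MALAT1 were YBX1, an RNA-binding protein (0.61, with 54, 34 and 37 sites), EEF1A1, a translation elongation factor (0.99, with 73, 35 and 45), and ACTB, cytoplasmic actin (1.33, with 74, 48 and 68). For TALAM1 they were YBX1 (0.43), EEF1A1 (0.80) and the lysosomal enzyme gene PPT1 (1.28, with 60, 22 and 27). NEAT1 has no such neighbours, since 2 of its counts are 0.

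Genes of the bodies that hold these RNAs were listed too, with no call in any list, where 0.203%, 0.282% and 0% of all tested sites were called. Of 22 paraspeckle proteins 11 were listed for ADARcd alone, 18 for DDX41-ADARcd against ADARcd alone and 11 against the empty vector. In the same order the whole lists name 1258, 4036 and 957 genes, so the second is by far the longest. HNRNPA1, a splicing repressor, led with 20, 10 and 8 sites, and SFPQ, a NEAT1-binding core protein of the body, had 11, 2 and 4. Of 24 nuclear speckle proteins 14, 23 and 11 were listed. SON, a scaffold protein of speckles, had 11, 20 and 6 sites, and SRRM2, the other large scaffold, had 1, 22 and 6. The median level of their sites was 0.893%, 2.04% and 1.16% for the speckle list and 0.606%, 1.2% and 0.629% for the paraspeckle list, at median depths of 115, 51 and 89 and of 203, 88 and 159 reads.

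Other long noncoding RNAs gave 7, 11 and 6 listed members of 33. RPPH1, the RNA of RNase P, had 7, 12 and 13 sites, OIP5-AS1 had 0, 19 and 0, and GAS5, a host of small nucleolar RNAs, had 4, 3 and 1. Of 21 neighbouring genes of 11q13 only CFL1, the actin-severing cofilin, was listed for ADARcd alone, with 14 sites. For DDX41-ADARcd 9 were listed against ADARcd alone, again the longest list, and 2 against the empty vector. MALAT1 and TALAM1 each had more sites than any member of these 4 lists in every list of sites. None of these genes had a site that passed Fisher's exact test, which over all genes called at most 0.282% of the tested sites of a list.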

How the data were processed

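The 3 site lists hold 1 library per group. Per the file headers, the deposited values are read counts per base and total counts at each position for 2 libraries, not normalized by the authors. Columns name no library: of the pair in a list's title, the former was read as edited and the gDNA/wtRNA columns as its control. STAR 2.5, CASAVA 1.4, FastQC 0.11.7 and, for these human cells, build mm10 stand in the submitters' processing notes. Which program called the sites, and with what filters, is not given in the sources used here. Member positions carry A on the strand in human GENCODE 29 transcripts, so GRCh38 is printed.

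Entries repeating a position were joined, leaving 6413, 10407 and 3516 sites with median depths of 286, 30 and 220 reads in the edited library. Fisher's exact test (scipy 1.17.1, Python 3.11.15) used sites with at least 10 reads in each library, Benjamini-Hochberg adjusted over each comparison; it was tested on simulated data. For DDX41-ADARcd against ADARcd alone, 402 positions that both transduced libraries share in their empty-vector lists were added, because the deposited list holds 0 edited reads in ADARcd alone. Shares have Clopper-Pearson 95% intervals and a count of 0 a floor of 3 reads; both cover counting error only, as PCR reads lacking molecular identifiers are not separate molecules.

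The members and gene lists were chosen with earlier results of these data known. Named sites are the 3 with most edited reads per gene and list and those listed for both libraries; named genes are the 3 nearest in numbers of sites and up to 4 per gene list with most sites. Neighbouring bases, read-matched sites, depth windows, adjacent sites, other bases and the NEAT1 letters were described after values were seen. Alternatives were Bonferroni adjustment, halved reads, at least 20 reads, 2 or more edited reads, and the annotated strand.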

Additional observations from a re-analysis of the deposited data

How the results depend on the processing

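The number of member sites called stayed at 0 in all 3 comparisons with Bonferroni adjustment, with reads of both libraries halved, with at least 20 reads in each library, and with 2 or more edited reads in either library. Bonferroni adjustment is never less strict than the main adjustment, and halved reads lower the power. An unchanged 0 under these settings therefore says nothing about whether the sites are edited. Taking the strand from the named gene changed none of 7 numbers of sites. At least 20 reads in both libraries cut MALAT1 from 52 to 20 sites for ADARcd alone, with a median level of 0.179%, and from 41 to 21 for DDX41-ADARcd against the empty vector; it cut TALAM1 from 60 to 34 for ADARcd alone and NEAT1 from 2 to 1, the shallow site 65439571 being lost. Requiring 2 or more edited reads raised 6 medians of MALAT1 and TALAM1 to between 0.392% and 1.68%, by construction, and left 4 and 3 TALAM1 sites of DDX41-ADARcd, all with A or U before the edited A. No paired analysis was possible because each group has 1 library.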
